A study of Homo sapiens with 12 samples.

Results

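TXNIP, ARRDC4, PKLR, MLXIPL, MLXIP and MLX make up the glucose-sensing circuit described here, 6 genes of the 25714 listed for Huh-7 and the 25720 listed for Hep-3B. They were chosen by symbol, because TXNIP moved in opposite directions in the 2 lines after the same knockdown, so the values of TXNIP in that comparison are given as a description without a test. The question put to the other 5 genes was whether they followed TXNIP in each line. All 6 genes passed the filter on low counts in Huh-7 and 5 of them passed it in Hep-3B, where PKLR did not.

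The study silenced ARD1, the catalytic subunit of the main N-terminal acetyltransferase, whose gene symbol is NAA10, in a pair of human liver cancer lines, and its title concerns glutathione synthesis and escape from ferroptosis. RNA was read in 12 libraries, 3 in each of 4 groups: Huh-7 cells given a small interfering RNA against ARD1 (siARD1), Huh-7 cells given a negative control siRNA, and the same pair of treatments in libraries labelled Hep-3B. All 4 groups are transfected cells, and untransfected cells were not analysed here. The labels give neither the number of siRNA sequences nor the time after transfection, and do not say whether the 3 libraries of a group came from separate cultures, so the p-values measure the spread between these libraries only.

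MondoA (the protein of MLXIP) and ChREBP (the protein of MLXIPL) are transcription factors that are held back in the cell until phosphorylated glucose accumulates. Each then pairs with MLX and binds carbohydrate response elements, in which a pair of E-box-like sites is set apart by a short spacer. TXNIP and ARRDC4 are alpha-arrestins that both factors can induce and that reduce glucose uptake, TXNIP also binding and inhibiting thioredoxin, while PKLR encodes the pyruvate kinase of liver, the textbook target of ChREBP.

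The stretches upstream of the 3 target genes are shown because the members are grouped by this element. They are RefSeq promoters of GRCh38.p14, cut where annotated exons begin, and capitals mark the carbohydrate response element in TXNIP and PKLR and an E-box (CACGTG) in ARRDC4. The TXNIP stretch belongs to the more upstream of 2 RefSeq starts and is chr1:145996601-145996829 on the minus strand. The PKLR stretch belongs to the more downstream of 2 RefSeq starts and is chr1:155301002-155301202 on the minus strand. The ARRDC4 stretch is chr15:97960453-97960697 on the plus strand.
TXNIP: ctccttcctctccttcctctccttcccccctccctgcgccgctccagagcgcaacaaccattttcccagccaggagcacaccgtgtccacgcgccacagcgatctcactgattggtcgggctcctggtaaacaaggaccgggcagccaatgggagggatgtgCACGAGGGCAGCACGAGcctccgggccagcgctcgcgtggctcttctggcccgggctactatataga
PKLR: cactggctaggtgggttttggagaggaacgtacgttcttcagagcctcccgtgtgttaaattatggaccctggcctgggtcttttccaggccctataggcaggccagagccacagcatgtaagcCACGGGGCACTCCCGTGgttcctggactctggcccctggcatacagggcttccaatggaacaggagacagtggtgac
ARRDC4: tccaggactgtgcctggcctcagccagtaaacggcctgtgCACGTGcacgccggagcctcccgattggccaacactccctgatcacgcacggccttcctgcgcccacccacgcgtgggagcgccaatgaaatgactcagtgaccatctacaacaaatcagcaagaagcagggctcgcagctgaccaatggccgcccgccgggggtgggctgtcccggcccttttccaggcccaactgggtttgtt

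The element was searched on both strands as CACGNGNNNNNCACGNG, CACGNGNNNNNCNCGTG or CNCGTGNNNNNCACGNG, and 23 of 35116 RefSeq promoters held it (0.0655%). In TXNIP it lay at positions -88 to -72 from the more upstream start, and in PKLR at positions -126 to -110 from the more downstream start. The ARRDC4 stretch did not hold these letters and had its E-box at positions -210 to -205. An E-box occurred in 6.34% of all promoters, and its letters can lie within some forms of the element. MLX had one at positions -50 to -45, and the upstream PKLR start had one at positions -197 to -192. The CCAAT box, the site bound by NF-Y, occurred in 32.0% of promoters. TXNIP had it at positions -140 to -136 and -105 to -101, both upstream of its response element. The more downstream TXNIP start, at chr1:145995744, held none of the 3 motifs. ARRDC4 had it at positions -187 to -183, -128 to -124 and -67 to -63. The downstream PKLR start had it at -75 to -71, MLXIP at -76 to -72 and MLX at -66 to -62. No stretch of MLXIPL held any of the 3 motifs, which says only that these letters are not in that window.

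In the GENCODE 29 annotation of GRCh38, TXNIP (ENSG00000265972) spans chr1:145992435-145996600 on the minus strand and PKLR (ENSG00000143627) spans chr1:155289293-155301438 on the minus strand. ARRDC4 (ENSG00000140450) spans chr15:97960698-97973838 on the plus strand. The transcription factor genes lie apart from them and from each other: MLXIPL (ENSG00000009950) spans chr7:73593194-73624543 on the minus strand, MLXIP (ENSG00000175727) chr12:122078722-122147347 on the plus strand and MLX (ENSG00000108788) chr17:42567068-42573239 on the plus strand. Each level is one value for the whole gene, so transcript forms of a gene were not separated.

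The knockdown was present in every siARD1 library. Levels are given as CPM, the counts of a gene relative to the library total after TMM scaling. NAA10 averaged 11.01 ± 1.87 CPM in siARD1 Huh-7 and 174 ± 23.4 CPM in control Huh-7 (SD, n = 3 each), which is -3.98 on the log2 scale (SE 0.13, edgeR adjusted p = 1.66e-08). In Hep-3B it averaged 13.6 ± 2.47 CPM in siARD1 and 55.3 ± 5.94 CPM in control libraries, which is -2.01 on the log2 scale (SE 0.12, edgeR adjusted p = 1.36e-07). The libraries held 17327615 to 25960237 counts. In the libraries labelled Hep-3B, ALB did not exceed 6.204 CPM and AFP did not exceed 1.97 CPM, whereas Huh-7 held at least 10689 CPM of ALB and 3182 CPM of AFP. Since Hep-3B is a hepatoma line in which both are usually made, the name of that line is used here as a label. Fibroblast markers summed to 29.1 to 30.9 CPM in siARD1 Huh-7 and 36.1 to 41.9 CPM in control Huh-7, and to 137 to 172 CPM in siARD1 Hep-3B and 162 to 174 CPM in control Hep-3B. Under upper-quartile scaling the share of calls that were higher in siARD1 Huh-7 was 39.7%, against 52.9% under TMM, and in Hep-3B it was 44.9%, against 52.3%, so the direction of small changes depends on the scaling in both lines.

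TXNIP was lower in siARD1 than in control Huh-7 cells and higher in siARD1 than in control Hep-3B cells. It stood at 81.9, 78.5 and 73.7 CPM in the siARD1 Huh-7 libraries, against 262, 249 and 255 CPM in the control Huh-7 libraries. Every siARD1 library lay far below every control library. The fold was 0.306, or -1.71 on the log2 scale (SE 0.055). In Hep-3B it stood at 803, 802 and 810.3 CPM in the siARD1 libraries, against 578, 656 and 604 CPM in the control libraries. Here the siARD1 libraries lay above all controls and almost coincided, while the controls were spread more widely. The fold was 1.31, or 0.39 on the log2 scale (SE 0.058). The difference between the lines, Huh-7 minus Hep-3B, was -2.12 on the log2 scale (SE 0.084). These values chose the gene and carry no test. In bulk RNA, fewer cells making a transcript and less transcript per cell cannot be told apart.

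**Figure D1:**
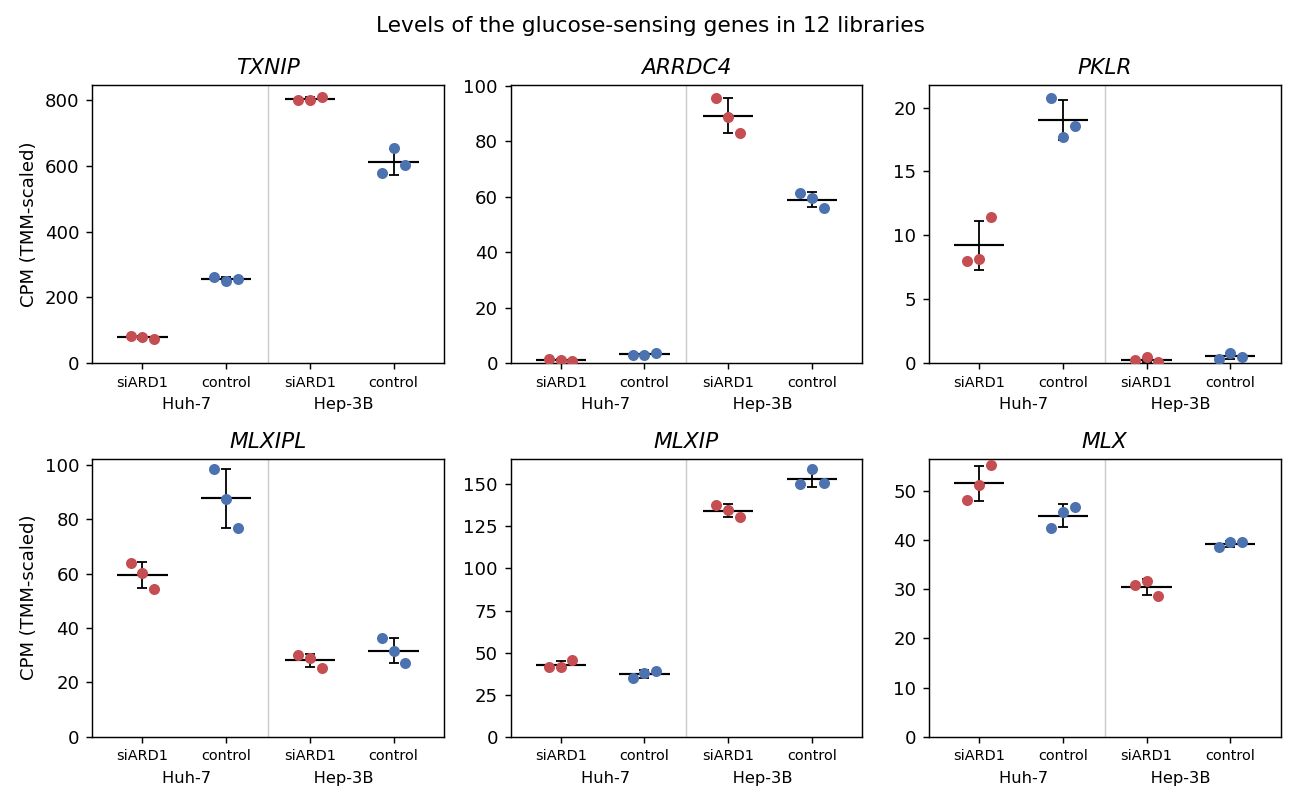
Level of each of the 6 genes in each library, in TMM-scaled CPM on linear axes that start at 0 and differ between panels. Points are libraries, with siARD1 in red and control siRNA in blue, and bars show the mean ± SD (n = 3). TXNIP and ARRDC4 lie below control in siARD1 Huh-7 and above control in siARD1 Hep-3B, MLXIP and MLX do the opposite, and MLXIPL lies lower in siARD1 Huh-7, with overlapping groups in Hep-3B.

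ARRDC4, the closest relative of TXNIP among the 6 genes, moved with it in both lines. In Huh-7 it was a rare transcript, at 1.29, 1.14 and 0.890 CPM in the siARD1 libraries (25, 22 and 17 counts), against 2.82, 2.91 and 3.46 CPM in the control libraries (50, 64 and 79 counts). The groups did not overlap, although each value rests on fewer than 100 counts. ARRDC4 fell by 1.47 on the log2 scale (SE 0.25, edgeR quasi-likelihood test, Benjamini-Hochberg adjusted p = 6.43e-05). In Hep-3B it stood at 95.6, 88.9 and 83.1 CPM in the siARD1 libraries, against 61.3, 59.5 and 56.0 CPM in the control libraries. Again the groups did not overlap, now with siARD1 above control. It rose by 0.60 on the log2 scale (SE 0.071, edgeR adjusted p = 1.53e-05). The 2 responses differed by -2.08 on the log2 scale (SE 0.20, edgeR adjusted p = 9.79e-09), beside -2.12 for TXNIP. The direction in each line and the calls held under all the alternative settings run for ARRDC4.

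PKLR fell in siARD1 Huh-7 cells and could not be followed in Hep-3B. It stood at 8.004, 8.15 and 11.5 CPM in siARD1 Huh-7, against 20.7, 17.7 and 18.6 CPM in control Huh-7. The groups did not overlap, and 1 siARD1 library lay closer to the controls than the other two. PKLR fell by 1.04 on the log2 scale (SE 0.12, edgeR adjusted p = 1.07e-06). In Hep-3B it had 4, 10 and 3 counts in the siARD1 libraries and 8, 14 and 10 counts in the control libraries, which overlap and are too few for the test. The difference between the lines, fitted over all 12 libraries, was -0.04 with a 95% interval from -1.87 to 1.80 (edgeR adjusted p = 0.982), so these counts resolve neither a shared nor an opposite response. HCN3, on the opposite strand, has a gene span that overlaps that of PKLR by 556 bases, and how much of this is exon was not examined. HCN3 stood at 10.3 ± 1.10 CPM in siARD1 Huh-7, against 19.6 ± 2.58 CPM in control Huh-7 (log2 fold change -0.92, SE 0.11, edgeR adjusted p = 1.47e-06). The kit keeps strand, but the strand setting of the counting is not given in the sources used here. Reads in the overlap thus cannot be assigned to either gene on this evidence. HCN3 stood at 12.2 ± 0.681 CPM in siARD1 Hep-3B and 11.4 ± 1.07 CPM in control Hep-3B, where no PKLR value exceeded 0.812 CPM.

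MLXIPL, which encodes ChREBP, fell in siARD1 Huh-7 cells. It stood at 64.0, 60.0 and 54.3 CPM in siARD1 Huh-7, against 98.6, 87.6 and 76.7 CPM in control Huh-7. The groups did not overlap. MLXIPL fell by 0.56 on the log2 scale (SE 0.083, edgeR adjusted p = 6.33e-05). In Hep-3B it stood at 30.1, 28.9 and 25.4 CPM in siARD1 libraries, against 36.3, 31.4 and 27.2 CPM in control libraries, and the groups overlapped. The log2 fold change there was -0.17 (95% interval -0.38 to 0.03, edgeR adjusted p = 0.222). The responses differed by -0.40 on the log2 scale (SE 0.14, edgeR adjusted p = 0.0357), a call that was lost in 9 of 18 alternatives, 8 of them the removal of 1 library. AC005089.1, which lies within MLXIPL on the same strand, had log2 fold changes of -1.04 in Huh-7 (edgeR adjusted p = 0.00328) and 0.04 in Hep-3B (edgeR adjusted p = 0.950), at no more than 2.53 CPM on average. ChREBP shared the direction of TXNIP in Huh-7 and did not have a called change of its own in Hep-3B. Of the 10 hepatocyte markers listed, 7 lay lower in every siARD1 Huh-7 library than in any control Huh-7 library, while FGA, TTR and HNF4A overlapped. Over all tested genes in Huh-7, groups did not overlap, in either direction, for 50.0%. The summed marker level, in which ALB weighs most, was 26955 to 31282 CPM in siARD1 Huh-7 and 35260 to 36819 CPM in control Huh-7. In Hep-3B 6 of the 10 markers lay lower without overlap and 4 overlapped, HNF4A among them, where groups did not overlap for 45.0% of all tested genes. The marker sum there, in which FGA weighs most, was 145 to 189.9 CPM in siARD1 and 318 to 370.2 CPM in control libraries. TTR was at the floor in both groups, with 0 counts in each siARD1 library and 2, 1 and 1 counts in the control libraries. A set of 25 genes averaged at least 100 CPM in Huh-7 and at least 1000-fold less in Hep-3B. Their median share of the Huh-7 level was 0.0490%, 0.0560% and 0.0359% in the control Hep-3B libraries. In the siARD1 Hep-3B libraries it was 0.00645%, 0.00684% and 0.00685%. Whether carry-over of Huh-7 RNA makes up the low marker levels in Hep-3B, such as ALB and AFP, was not tested. The part of the hepatocyte markers in these results was not tested either.

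MLXIP, which encodes MondoA, and MLX, the partner of both factors, moved little and in the direction opposite to TXNIP. MLXIP stood at 41.5, 41.6 and 45.3 CPM in siARD1 Huh-7, against 34.8, 38.1 and 39.2 CPM in control Huh-7. The groups were adjacent without overlap. The rise was 0.19 on the log2 scale (SE 0.072, edgeR adjusted p = 0.0375). In Hep-3B it stood at 138, 135 and 130.3 CPM in siARD1 libraries, against 149.9, 159 and 151 CPM in control libraries. All siARD1 libraries lay below the controls. The change was -0.19 on the log2 scale (SE 0.059, edgeR adjusted p = 0.0208), and the responses differed by 0.37 (SE 0.091, edgeR adjusted p = 0.00247).

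MLX stood at 48.2, 51.2 and 55.2 CPM in siARD1 Huh-7, against 42.3, 45.7 and 46.8 CPM in control Huh-7. The siARD1 libraries lay above the controls by a margin smaller than the spread within either group. MLX rose by 0.19 on the log2 scale (SE 0.070, edgeR adjusted p = 0.0293). In Hep-3B it stood at 30.9, 31.7 and 28.6 CPM in siARD1 libraries, against 38.5, 39.6 and 39.5 CPM in control libraries. The groups did not overlap. MLX fell by 0.37 on the log2 scale (SE 0.078, edgeR adjusted p = 0.00191), and the responses differed by 0.55 (SE 0.11, edgeR adjusted p = 0.000251). The Huh-7 calls of MLXIP and MLX were lost under upper-quartile scaling and in DESeq2, and the Hep-3B call of MLXIP was lost without control replicate 2 (-0.16), siARD1 replicate 1 (-0.21) or siARD1 replicate 3 (-0.17), whereas the differences between the lines kept their calls for both genes in all alternatives run. PSMC3IP, on the strand opposite to MLX and overlapping its gene span by 925 bases, had log2 fold changes of -0.16 in Huh-7 and 0.27 in Hep-3B, neither called (edgeR adjusted p = 0.248 and 0.137).

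Counted together without TXNIP, all 5 genes changed in Huh-7, 2 higher and 3 lower, where 40.1% of the 15919 tested genes were called, 21.2% higher and 18.9% lower. In Hep-3B 3 of 4 changed, 1 higher and 2 lower, where 32.2% of 15762 were called, 16.8% higher and 15.3% lower. The response differed between the lines for 4 of 5, 2 above and 2 below 0, where 31.4% of 17122 tested genes differed, 15.2% above and 16.2% below. With TXNIP included, the groups did not overlap for 6 of 6 genes in Huh-7, as for 50.0% of all tested genes, and for 4 of 5 in Hep-3B, as for 45.0%. The genes were proposed with these contrasts known, so nothing is read from the shares.

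**Figure D2:**
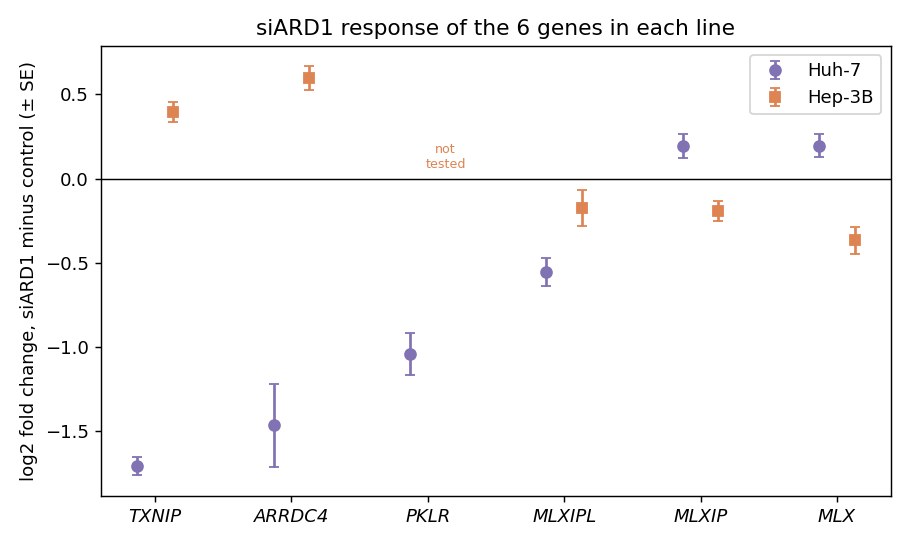
Log2 fold change, siARD1 minus control siRNA, of the 6 genes in Huh-7 (circles) and Hep-3B (squares), with bars of 1 SE. TXNIP stands at -1.71 and 0.39 and ARRDC4 at -1.47 and 0.60, MLXIP and MLX have the reverse signs at a smaller size, and PKLR has no value in Hep-3B.

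Without any knockdown most of these genes already differed between the lines, about as often as tested genes did in general. In the 6 control libraries, 5 of the 6 genes differed between Huh-7 and Hep-3B, 2 higher and 3 lower in Huh-7, where 81.4% of 16524 tested genes did, 41.3% higher and 40.1% lower. These are the controls of the contrasts above, so the 2 sets of values are not independent. ARRDC4 was lower in Huh-7 (log2 fold change -4.42, SE 0.11, edgeR adjusted p = 8.61e-20), MLXIP was lower (-2.19, SE 0.067, edgeR adjusted p = 4.93e-18), and TXNIP was lower (-1.42, SE 0.061, edgeR adjusted p = 2.10e-15). The liver genes ran the other way: PKLR was 31.8-fold higher in Huh-7 (log2 fold change 4.99, SE 0.20, edgeR adjusted p = 8.50e-16), and MLXIPL was higher by 1.30 (SE 0.11, edgeR adjusted p = 2.57e-08). MLX differed by 0.04 (95% interval -0.11 to 0.18, edgeR adjusted p = 0.647). Under upper-quartile scaling the median over all genes in this contrast was 0.13, against 0.03 under TMM, a shift smaller than any of the called differences here.

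Per length of exon the order of the genes also differed between the lines. In Huh-7, TXNIP led with 20.2 CPM per kilobase in siARD1 and 66.8 in control libraries. MLXIPL followed at 11.6 in siARD1 and 17.3 in control libraries, and MLX at 11.3 in siARD1 and 10.02 in control libraries. The ranges of MLXIPL and MLX overlapped in siARD1 and not in control libraries. PKLR stood at 2.72 CPM per kilobase in siARD1 and 5.69 in control libraries, and MLXIP at 2.89 in siARD1 and 2.55 in control libraries, so this pair overlapped in siARD1 and PKLR was the higher in control libraries. ARRDC4 was last in Huh-7, at 0.255 CPM per kilobase in siARD1 and 0.715 in control libraries.

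In Hep-3B, TXNIP led again with 236 CPM per kilobase in siARD1 and 179.8 in control libraries, and ARRDC4 was second with 23.3 in siARD1 and 15.4 in control libraries. MLXIP came next with 10.3 CPM per kilobase in siARD1 and 11.7 in control libraries. MLX at 7.59 in siARD1 and 9.79 in control libraries stood above MLXIPL at 6.21 in siARD1 and 6.99 in control libraries, without overlap. PKLR was last at 0.0872 in siARD1 and 0.184 in control libraries. Huh-7 thus held more ChREBP than MondoA transcript per length in all its libraries, and Hep-3B the reverse. The lengths are the exon unions of GENCODE 29, which for MLXIP reach 13905 bases, so the per-length level of MLXIP depends on which transcripts are made.

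**Figure D3:**
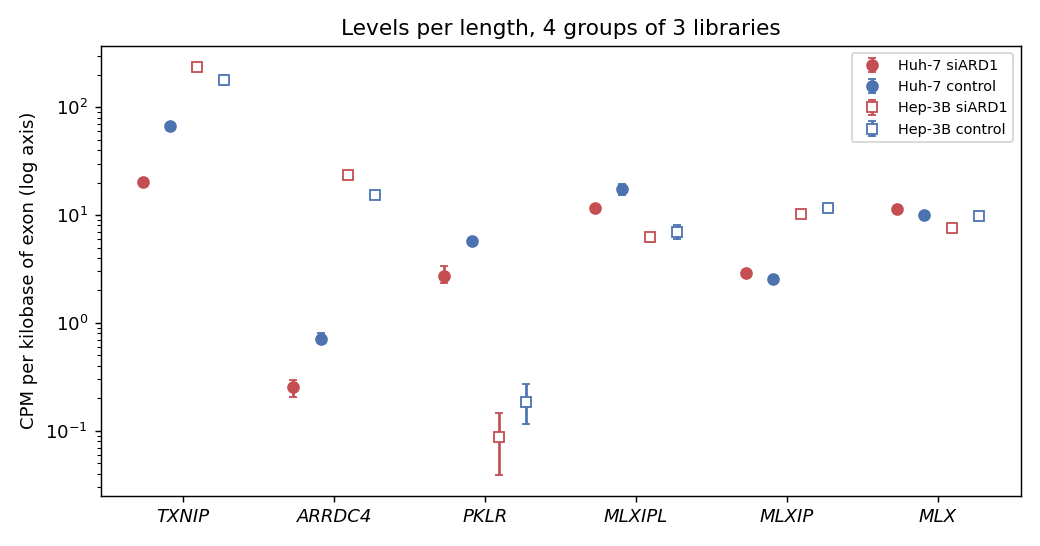
Mean level of each gene per kilobase of annotated exon, on a log axis, in the 4 groups of 3 libraries (filled circles Huh-7, open squares Hep-3B, red siARD1, blue control siRNA), with bars from the lowest to the highest library. TXNIP is the highest of the 6 genes in every group, and ARRDC4 is last in Huh-7 and second in Hep-3B.

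Other genes that ChREBP and MondoA are known to induce were lower more often than higher in both lines. Over all tested genes, 21.2% were called higher and 18.9% lower in Huh-7, and 16.8% higher and 15.3% lower in Hep-3B. In Huh-7, 23 of the 25 listed targets were tested, and 2 were higher and 12 lower, with a median log2 fold change of -0.33, against -0.01 for all tested genes. In Hep-3B 19 were tested, 2 were higher and 9 lower, with a median of -0.19, against -0.01; the higher count was 1 without siARD1 replicate 3. In Huh-7 APOC3, an apolipoprotein that slows the clearance of triglyceride, fell by 1.04 (SE 0.076, edgeR adjusted p = 7.43e-10), and was not tested in Hep-3B. MTTP, which loads lipid onto lipoproteins, fell by 0.51 in Huh-7 and by 0.43 in Hep-3B. SCD, the desaturase of stearate, fell by 0.44 in Huh-7 and by 1.04 in Hep-3B, and the fatty acid synthase FASN fell by 0.33 in Huh-7 and by 0.88 in Hep-3B. ACACA, which makes malonyl-CoA, had a log2 fold change of 0.08 in Huh-7 that was not called (edgeR adjusted p = 0.308), and fell by 0.48 in Hep-3B. ME1, the cytosolic malic enzyme, rose in both lines, by 0.51 in Huh-7 and 0.38 in Hep-3B. PFKFB3, an activator of glycolysis, rose by 0.44 in Huh-7 and fell by 0.42 in Hep-3B, the reverse of TXNIP.

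**Figure D4:**
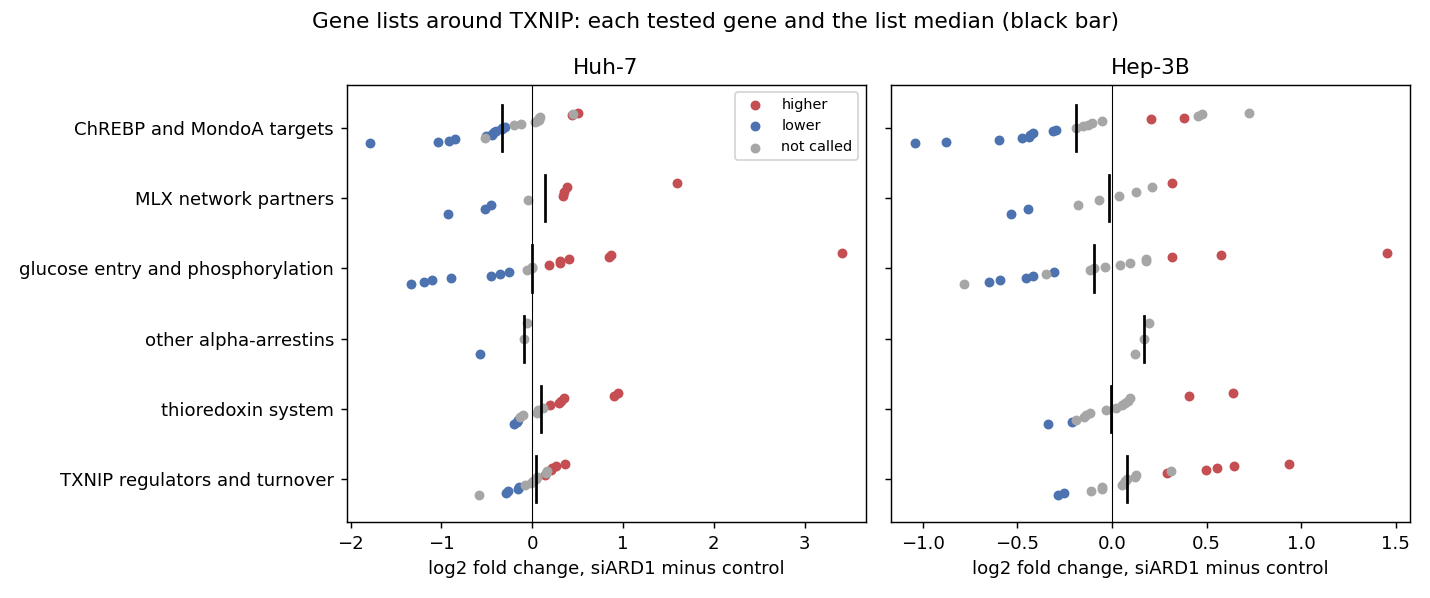
Log2 fold change, siARD1 minus control siRNA, of the tested genes of 6 lists around TXNIP in Huh-7 (left) and Hep-3B (right), on axes of different range. Each point is a gene, red where called higher, blue where called lower and grey where not called, and black bars are list medians, which for the ChREBP and MondoA targets are -0.33 in Huh-7 and -0.19 in Hep-3B.

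Among the 8 partners of the MLX network, the MYC-related factors that share its dimerisation scheme, 4 were higher and 3 lower in Huh-7 (median 0.14). In that line 21.2% of all tested genes were higher and 18.9% lower. In Hep-3B 1 was higher and 2 were lower (median -0.02), where 16.8% of all tested genes were higher and 15.3% lower. The higher count in Hep-3B was 2 without siARD1 replicate 2. MYC itself had the reverse pattern to TXNIP, 1.59 in Huh-7 (SE 0.12) and -0.53 in Hep-3B (SE 0.075), a difference of 2.11 (edgeR adjusted p = 2.17e-07). The repressor MXD4 was lower in both lines, at -0.52 in Huh-7 and -0.44 in Hep-3B. Another repressor, MXD3, fell by 0.93 in Huh-7, while MXD1 rose by 0.35 in Huh-7 and by 0.31 in Hep-3B. MGA, which pairs with MAX, rose by 0.39 in Huh-7 and had 0.21 in Hep-3B without a call (edgeR adjusted p = 0.0940), although it was called without siARD1 replicate 2 (0.28, edgeR adjusted p = 0.0343).

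Of the glucose transporters, hexokinases and related enzymes, 17 of 22 were tested in each line. In Huh-7 7 were higher and 7 lower (median -0.01), where 21.2% of all tested genes were higher and 18.9% lower. In Hep-3B 3 were higher and 5 lower (median -0.09), where 16.8% of all tested genes were higher and 15.3% lower. The lower count in Huh-7 was 4 without siARD1 replicate 1. HKDC1, a hexokinase, rose in Huh-7 by 3.41 (SE 0.35, edgeR adjusted p = 1.02e-07) from a control level near the floor, averaging 2.96 CPM in siARD1 and 0.279 CPM in control libraries. SLC2A4, the insulin-responsive transporter, fell by 1.11 there. SLC2A10 fell by 0.46 in Huh-7, and PFKFB2 rose by 0.86. TIGAR, which lowers fructose bisphosphate, rose in both lines, by 0.84 in Huh-7 (SE 0.15, edgeR adjusted p = 9.80e-05) and by 1.45 in Hep-3B (SE 0.18, edgeR adjusted p = 1.69e-05). SLC2A12 fell in both, by 1.19 in Huh-7 and by 0.65 in Hep-3B. In Hep-3B the muscle-type pyruvate kinase PKM fell by 0.59 and HK1 by 0.31.

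In the thioredoxin system 6 of 14 genes were higher and 3 lower in Huh-7 (median 0.09), and 2 were higher and 2 lower in Hep-3B (median -0.005). The shares over all tested genes were 21.2% higher and 18.9% lower in Huh-7, and 16.8% higher and 15.3% lower in Hep-3B. The lower count in Huh-7 and both counts in Hep-3B lie near these shares. The lower count in Huh-7 was 5 under upper-quartile scaling, 1 without control replicate 2, siARD1 replicate 1 or siARD1 replicate 2, and 0 without control replicate 3, and in Hep-3B it was 1 without siARD1 replicate 1. TXNRD1, the reductase that recharges thioredoxin, rose by 0.90 in Huh-7 (SE 0.055, edgeR adjusted p = 5.18e-11). SRXN1, the sulfiredoxin, rose there by 0.94, and TXN, thioredoxin itself, by 0.31. In Hep-3B they had 0.07, 0.09 and 0.08 in that order, none of them called. A link of these genes to TXNIP was not tested. TXNL1 rose by 0.30 in Huh-7 and by 0.64 in Hep-3B. In Hep-3B PRDX6 rose by 0.41 and TXN2 fell by 0.34. PRDX2 fell in both lines, by 0.16 in Huh-7 and by 0.21 in Hep-3B.

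Of the other alpha-arrestins, 3 of 4 were tested, with a median of -0.09 in Huh-7 and 0.17 in Hep-3B. ARRDC2 fell by 0.57 in Huh-7 (SE 0.18, edgeR adjusted p = 0.0156), a call lost without control replicate 2 (-0.53) or siARD1 replicate 2 (-0.51). It had 0.20 in Hep-3B (SE 0.074, edgeR adjusted p = 0.0502), where it passed with RLE factors (edgeR adjusted p = 0.0458), with the filter at 1 CPM (0.0472) and without siARD1 replicate 3 (0.0486). ARRDC3 and ARRDC1 were not called in either line, with -0.09 and -0.06 in Huh-7 and 0.12 and 0.17 in Hep-3B, but ARRDC3 passed under upper-quartile scaling in Huh-7 (-0.16) and without control replicate 3 in Hep-3B (0.23). Among known regulators of TXNIP transcription and turnover, 5 of 17 were higher and 4 lower in Huh-7 (median 0.04). There 21.2% of all tested genes were higher and 18.9% lower. In Hep-3B 5 were higher and 2 lower (median 0.08), where 16.8% of all tested genes were higher and 15.3% lower. The higher count in Huh-7 was 2 under upper-quartile scaling, without control replicate 2 or without siARD1 replicate 1, and 3 in DESeq2 or without control replicate 3, while the lower count was 2 without control replicate 2 or 3. In Hep-3B the lower count was 1 without control replicate 3 or siARD1 replicate 1. PRKAA2 and PRKAB2, subunits of AMPK, the kinase that marks TXNIP for degradation, fell by 0.29 and 0.27 in Huh-7. Both rose in Hep-3B, by 0.64 and 0.29, so each moved as TXNIP did in both lines. Other AMPK subunits did not share this pattern. In Huh-7 PRKAB1 rose by 0.26 and PRKAG2 by 0.36, and PRKAA1 fell by 0.16. In Hep-3B these were at 0.05, -0.05 and -0.11 in that order, none of them called. PRKAG1 was not called in either line. FOXO3 rose by 0.50 in Hep-3B and NFYB, a subunit of NF-Y, by 0.93. In Huh-7 NEDD4L, a ubiquitin ligase, rose by 0.21.

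Taking all 6 lists, 75 of 91 genes were tested in both lines. Of these 4 were higher in both, 10 lower in both, 4 higher in Huh-7 and lower in Hep-3B, and 3 lower in Huh-7 and higher in Hep-3B. Over all tested genes 40.1% were called in Huh-7 and 32.2% in Hep-3B. Joint directions were not counted over all genes, so nothing is read from the joint counts. List genes named for 1 line were not called in the other, or, for APOC3 and HK1, not tested there, which by itself does not show that the lines differ. The interaction test called a difference for MXD3, HKDC1, SLC2A10, PFKFB2, PKM, TXNRD1, SRXN1, PRDX6, TXN2, FOXO3 and NFYB. Their largest edgeR adjusted p was 0.0170, for SLC2A10. It called none for SLC2A4, HK1, TXN, NEDD4L and PRKAB1. These genes were named for a small p in 1 line, so the interaction tests are not independent of that choice. The list genes called lower in Huh-7 and higher in Hep-3B, as TXNIP moved, were PRKAA2, PRKAB2 and SLC2A13, a myo-inositol transporter. Outside the members, 21 genes held the carbohydrate response element letters in a promoter, and 15 were tested in Huh-7 and 16 in Hep-3B. In Huh-7 2 were higher and 3 lower (median -0.10), where 21.2% of all tested genes were higher and 18.9% lower. In Hep-3B 2 were called, both higher (median 0.06), where 16.8% of all tested genes were higher and 15.3% lower. GFPT1, the first enzyme of hexosamine synthesis, was the only gene of the set called in both lines, falling by 0.14 in Huh-7 and rising by 0.55 in Hep-3B. P4HA1, a collagen prolyl hydroxylase subunit, fell by 0.99 in Huh-7 and had 0.12 in Hep-3B without a call (edgeR adjusted p = 0.164).

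The genes with levels most like those of TXNIP over the 12 libraries, after each line was centred on its own mean, were PPP2R3A (Pearson r = 0.988), PPP1R26 (0.978), NMRK1 (0.978), PROCA1 (0.976) and CAV2 (0.975), of 9493 candidates. These values describe 12 libraries that share 4 groups, and genes that differ between siARD1 and control in opposite directions rank high by this measure. PPP2R3A averaged 4.19 CPM in siARD1 Huh-7, against 11.5 CPM in control Huh-7, and 25.3 CPM in siARD1 Hep-3B, against 20.7 CPM in control Hep-3B. For ARRDC4 they were CCNG2 (0.980), H1-10 (0.973), TRIM2 (0.962), MICB (0.960) and METRN (0.959), of 9494 candidates. CCNG2 averaged 34.5 CPM in siARD1 Huh-7, against 59.9 CPM in control Huh-7, and 70.2 CPM in siARD1 Hep-3B, against 51.1 CPM in control Hep-3B. TXNIP and ARRDC4 themselves gave r = 0.924 by this measure, and 0.317 once each of the 4 groups was centred, so their likeness lies mostly between groups.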

How the data were processed

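Total RNA depleted of ribosomal RNA was sequenced as directional libraries, per the labels' protocols. Cutadapt 4.6 and STAR 2.7.11b on GRCh38 are named in the submitters' processing notes; the sources used here do not name the counting tool, its strand setting or the annotation. The authors deposited raw read counts per Ensembl gene, 1 table per line. Symbols came from gene tables (25698 and 25701 IDs matched), positions and exon lengths from GENCODE 29.

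Genes were filtered with filterByExpr (minimum count 10, total 15), scaled by TMM and tested with edgeR 4.0.16 in R 4.3.3 (robust quasi-likelihood F-test, Benjamini-Hochberg threshold 0.05 over all tested genes), within each line, for the difference between lines over 12 libraries, and between lines in the controls. The SE is the log2 fold change divided by the root of F. Libraries of 17327615 to 25960237 counts limit rare transcripts (ARRDC4 in Huh-7, PKLR in Hep-3B). The fits were tested on simulated data. No replicate pair agreed within sampling noise (chi-square per gene 2.42 to 9.76).

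The members and lists were chosen with earlier results of these data known. From each list up to 4 genes per line with the smallest p are named, and for TXNIP and ARRDC4 the 5 protein-coding genes most correlated in log2(CPM + 1), with a mean of at least 5 CPM in each line. PKLR was the only member tested in 1 line. GFPT1, P4HA1, SLC2A13, PRKAA1, PRKAG1, PRKAG2 and the Hep-3B or Huh-7 counterparts of list genes were named after their values were seen. Alternatives were RLE and upper-quartile scaling, DESeq2 1.42.0, no filter or 1 CPM in 3 libraries, a replicate block, both lines in one fit, and removal of each library.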

Additional observations from a re-analysis of the deposited data

Results flagged for a closer look

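The siARD1 response is given as Huh-7 minus Hep-3B on the log2 scale. TXNIP differed by -2.12, which was not tested because the gene was chosen for it. Of the other 5 genes 4 differed, where 31.4% of 17122 tested genes did. ARRDC4 differed by -2.08, MLXIP by 0.37, MLXIPL by -0.40 and MLX by 0.55, each by the interaction test of edgeR over 12 libraries (edgeR adjusted p = 9.79e-09, 0.00247, 0.0357 and 0.000251 in that order), and the MLXIPL call was lost in 9 of 18 alternatives.

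Of the surrounding lists, 7 genes were called in opposite directions in the lines, and the interaction test called each. They were picked for those opposite calls in the same 12 libraries. The interaction calls were thus close to fixed by the choice and add no separate evidence. MYC differed by 2.11, PFKFB3 by 0.84, SLC2A6, a sugar transporter, by 0.80 and NFYA, a subunit of NF-Y, by 0.41, all higher in siARD1 Huh-7 and lower in siARD1 Hep-3B. PRKAA2 differed by -0.95, SLC2A13 by -0.59 and PRKAB2 by -0.58, the direction of TXNIP. The largest edgeR adjusted p among the 7 was 0.00108. The libraries labelled Hep-3B held almost no ALB or AFP, and what that label difference adds to these values was not tested.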

How the results depend on the processing

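TXNIP and ARRDC4 kept their directions, and ARRDC4 its calls, in every alternative run for them. In Huh-7 MLXIP lost its call under upper-quartile scaling (0.13, edgeR adjusted p = 0.159) and DESeq2 (0.19, adjusted p = 0.0671), and MLX under upper-quartile scaling (0.13), DESeq2 (0.19) and both lines in one fit (0.18). Without single libraries MLXIP ranged from 0.15 to 0.23 and MLX from 0.14 to 0.24 in Huh-7, MLXIP from -0.21 to -0.16 in Hep-3B, and the MLXIPL difference from -0.49 to -0.30, the MLXIPL call being lost in 8 of 12 removals (Huh-7 control replicates 1 and 2 and siARD1 replicates 2 and 3; Hep-3B control replicates 2 and 3 and siARD1 replicates 1 and 2). Huh-7 MLXIP lost its call without control replicate 1 (0.15), control replicate 2 (0.21) or siARD1 replicate 3 (0.15), and MLX without control replicate 1 (0.16), control replicate 2 (0.21), siARD1 replicate 2 (0.20) or siARD1 replicate 3 (0.14). With RLE factors the MLXIPL difference was -0.38 (edgeR adjusted p = 0.0511). The PKLR difference, never called, changed sign in DESeq2 (0.00401), with the replicate block (0.034) and without single libraries (-0.46 to 0.61). ARRDC1 in Huh-7 ranged from -0.11 to 0.012 without single libraries, changing sign without siARD1 replicate 3. PRKAB1 in Huh-7 (0.21) and PRDX2 in Hep-3B (-0.19) lost their calls without siARD1 replicate 1. Among other list genes and counts 868 values held, 28 counts moved by over 1.5 times, 8 calls were gained and 4 lost. The causes were not tested. PKLR in Hep-3B has no value under these settings because it was not tested.

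Deviations of same-numbered libraries correlated at -0.10 to 0.10 in Huh-7 and 0.03 to 0.10 in Hep-3B. Each library correlated best with its own number in Hep-3B but not in Huh-7. Replicate numbers thus did not pair the libraries in Huh-7, while a weak pairing in Hep-3B is possible and was not part of the main test. The block gave 6328 calls against 6388 without it in Huh-7, 5597 against 5070 in Hep-3B and 5606 against 5380 for the difference. With the block ARRDC2 (0.20, edgeR adjusted p = 0.0358) and MGA (0.21, edgeR adjusted p = 0.0410) were called in Hep-3B, and 3 regulators of TXNIP were higher in Huh-7, against 5.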
